A study of Mus musculus with 6 samples.

Results

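The 10 genes described here encode the TGF-beta ligands Tgfb1, Tgfb2 and Tgfb3, the receptors Tgfbr1, Tgfbr2 and Tgfbr3, and the latent TGF-beta binding proteins Ltbp1, Ltbp2, Ltbp3 and Ltbp4. They were taken by gene symbol from a table of 31055 RefSeq transcripts and 23364 gene symbols, in which they hold 13 transcripts. The study compared osteoblasts with chondrocytes of newborn C57BL/6 mice at postnatal day 1. The 3 osteoblast libraries came from GFP-sorted, Sp7 positive cells of the calvaria, the skull roof, which were released with Liberase. The 3 chondrocyte libraries came from wild-type rib cartilage cells, labelled WT, which were released with Pronase and Collagenase D, and no sort is given for them. Beyond the sample names, which read Sp7-GFP, the labels do not describe the construct that carried GFP. Cell type, body site, sorting, genotype and enzyme all differ between the groups together and cannot be told apart. The labels do not say that replicates came from separate animals, so p-values measure only the spread between these libraries.

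TGF-beta is secreted bound to its own propeptide, in a latent form that cannot reach its receptors. A latent TGF-beta binding protein can hold this complex and attach it to fibrillin and fibronectin in the matrix, from which integrins, proteinases or thrombospondin release it. The free ligand binds Tgfbr2, which activates Tgfbr1, and this kinase phosphorylates Smad2 and Smad3. Bone matrix stores much latent TGF-beta, and in growth cartilage the pathway is known for holding back hypertrophic maturation.

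Levels are RPKM, the reads per kilobase of transcript scaled to library size, summed over the transcripts of a symbol. RPKM is a level per length and lets genes be set side by side. From the steps between low values, the libraries were roughly estimated to hold 26885446 to 35840735 reads. A member rested on an estimated 414 (Ltbp1) to 24289 (Ltbp2) reads in a library. The labels held against marker genes: all 9 osteoblast markers tested were higher in osteoblasts, and all 8 chondrocyte markers were higher in chondrocytes. Sp7 is among the 9, and the osteoblasts were sorted as Sp7 positive, so it is no separate check. Col1a1, also among them, had 2270, 2259 and 7765 RPKM in chondrocyte replicates 1, 2 and 3, against 19060 to 20959 RPKM in osteoblasts. The chondrocyte libraries were the less alike, with correlations on the log2 scale across genes, which are not independent replicates, of 0.961 to 0.986, against 0.992 to 0.994 among osteoblast libraries. Chondrocyte replicate 2 had the lowest level of all 10 members within its group, and replicate 3 the highest of 9. Col2a1, the main collagen of cartilage, took 13.2%, 17.7% and 9.43% of all RPKM in chondrocyte replicates 1, 2 and 3, and the part of that spread in the members' levels was not tested.

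Differences were tested with limma on log2(RPKM + 1), osteoblast minus chondrocyte, over 11218 genes that had at least 1 RPKM in at least 3 of 6 libraries. All 10 members had at least 1 RPKM in every library, so none was tested through 1 cell type alone. Some genes of the pathway and marker lists passed this filter through 1 cell type alone, which favours a call on that side. A gene is called where its p, adjusted by Benjamini and Hochberg over all tested genes, is under 0.05. Of the 10 members, 3 were called higher in osteoblasts (Tgfb1, Tgfbr1 and Ltbp1), 2 lower (Tgfb2 and Tgfbr3), and 5 were not called. Over all tested genes 69% were called, 55.5% as higher in osteoblasts and 13.5% as lower, so 5 of 10 is no excess over the background. The groups did not overlap in 5 members, against 75.6% of all tested genes. The median difference was 0.19 for the members and 0.43 for all tested genes, which lay on the osteoblast side as a whole. Scaling the libraries by median of ratios brought the median of all genes to 0.06, with 3765 genes higher and 3178 lower in place of 6224 and 1512, and the median of the members to -0.25. A member's difference is therefore best read against 0.43 as well as against 0.

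**Figure D1:**
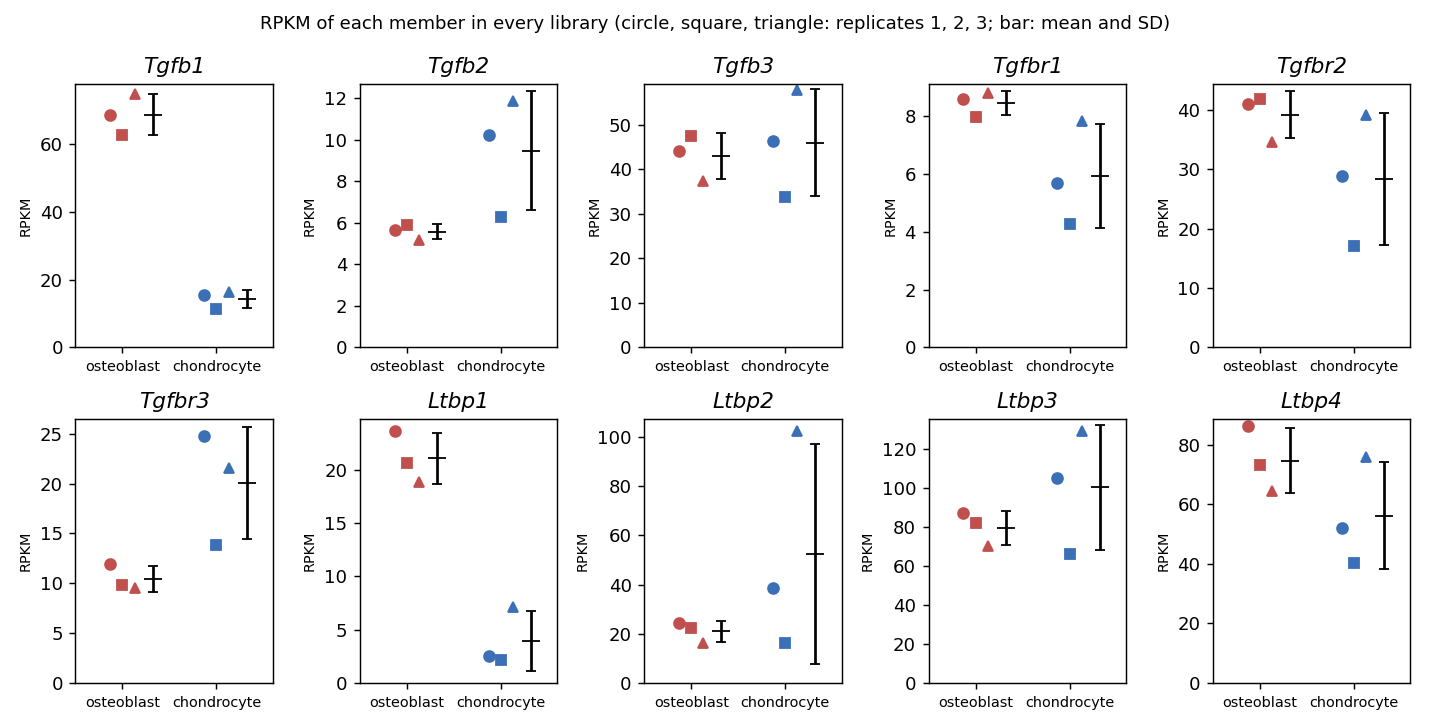
RPKM (vertical axes, from 0) of each of the 10 members in the 3 osteoblast libraries (red, left) and the 3 chondrocyte libraries (blue, right), with symbols for replicates 1 to 3 and a bar for the mean and SD. Tgfb1 and Ltbp1 lie far above in every osteoblast library, and the chondrocyte libraries spread widely for Ltbp2, which reached 103 RPKM in replicate 3.

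Among the ligands, Tgfb1 differed most between the cell types. It had 68.8, 62.7 and 74.8 RPKM in the osteoblast libraries, against 15.5, 11.3 and 16.2 RPKM in the chondrocyte libraries. Every osteoblast library was far above every chondrocyte library. The mean level was 4.79-fold higher in osteoblasts, with a log2 difference of 2.20 ± 0.15 (SE, limma, Benjamini-Hochberg adjusted p = 2.18e-05). The difference was 1.76 above the median of all tested genes, and it was called in all 17 alternative settings tried, at 1.76 to 2.29. Tgfb1 is the isoform best known from bone matrix, and it is also made by platelets and macrophages. Of 12 myeloid markers 9 were tested, and 7 were higher in the osteoblast libraries, 1 was lower and 1 was not called. Their summed level was 32.2 to 35.8 RPKM in osteoblast libraries and 6.12 to 20.4 RPKM in chondrocyte libraries. Ptprc, the marker common to white blood cells, was at 0.270 to 0.345 RPKM in osteoblast libraries and at 0.00600 to 0.175 RPKM in chondrocyte libraries. The 5 platelet markers summed to 6.32 to 10.8 RPKM in osteoblasts and 0.695 to 4.03 RPKM in chondrocytes, and only Pf4 was tested, and called higher. Within the chondrocyte group, the myeloid sum was 10.4, 6.12 and 20.4 RPKM in replicates 1, 2 and 3. Tgfb1 was 15.5, 11.3 and 16.2 RPKM there, an order that all other members but Tgfbr3 had too. The part of these cells in the Tgfb1 level was not tested. In bulk libraries such as these, fewer cells of a type and less RNA per cell cannot be told apart.

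Tgfb3, an isoform needed for palate fusion and used in the laboratory to drive cartilage formation, was abundant in both cell types. It had 44.1, 47.5 and 37.4 RPKM in osteoblasts, against 46.3, 33.8 and 57.9 RPKM in chondrocytes. The ranges overlapped, and the log2 difference of -0.07 ± 0.20 (SE) was not called (limma, Benjamini-Hochberg adjusted p = 0.774). Tgfb3 was called lower in osteoblasts under median-of-ratios scaling (-0.50, limma adjusted p = 0.0207), and under upper-quartile scaling and quantile normalization too. Its sign turned without osteoblast replicate 3 (0.03) or chondrocyte replicate 3 (0.11).

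Tgfb2, the isoform that binds Tgfbr2 weakly without the help of Tgfbr3, was the scarcest ligand. It had 5.64, 5.88 and 5.17 RPKM in osteoblasts, against 10.2, 6.29 and 11.9 RPKM in chondrocytes. The groups did not overlap, though chondrocyte replicate 2 lay close to the osteoblast libraries. The log2 difference of -0.63 ± 0.20 (SE) was called (limma, Benjamini-Hochberg adjusted p = 0.0256). This call was lost when any library other than chondrocyte replicate 2 was left out (adjusted p 0.0564 to 0.0814) and without the filter on low values (0.145).

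The make-up of the ligand pool was also set side by side. A share within a library does not depend on how libraries are scaled. Tgfb1 held 58.6% ± 4.86 of ligand RPKM in osteoblasts and 20.8% ± 1.66 in chondrocytes (n = 3 libraries each, SD). Tgfb3 held 36.7% ± 4.53 in osteoblasts and 65.8% ± 1.51 in chondrocytes, and Tgfb2 held 4.74% ± 0.331 in osteoblasts and 13.4% ± 1.04 in chondrocytes. None of the 3 shares overlapped between the groups. Shares of a class add up to the whole, so they are not separate results. The Tgfb3 share differed although the Tgfb3 level was not called (log2 difference -0.07). No background was computed for shares, and levels did not overlap in 75.6% of all tested genes. Each share gave p = 0.10 in an exact two-sided permutation test, the smallest that 3 against 3 libraries allow. The leading ligand thus was Tgfb1 in all 3 osteoblast libraries and Tgfb3 in all 3 chondrocyte libraries. The ratio of Tgfb3 to Tgfb1 was 0.642, 0.758 and 0.501 in osteoblasts, against 2.99, 2.997 and 3.56 in chondrocytes. The summed ligand level was 117 ± 1.20 RPKM in osteoblasts and 69.8 ± 17.4 RPKM in chondrocytes.

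The window around the annotated Tgfb1 start is shown because this ligand gave the largest ligand difference. It lies on the plus strand at chr7:25686752-25687051 of GRCm38.p6, covers 250 bases before to 50 bases after the RefSeq start, and has a GC content of 77.0%. Capitals mark GGGCGG on either strand, the core of the GC box that zinc finger factors of the Sp family are known to bind.
Tgfb1 start: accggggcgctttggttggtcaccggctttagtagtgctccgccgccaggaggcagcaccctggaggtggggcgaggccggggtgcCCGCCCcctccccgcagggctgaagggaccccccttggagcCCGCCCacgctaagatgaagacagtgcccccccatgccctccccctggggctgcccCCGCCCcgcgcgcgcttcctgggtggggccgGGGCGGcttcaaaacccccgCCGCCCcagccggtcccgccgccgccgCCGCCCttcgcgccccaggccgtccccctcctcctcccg
It holds 6 matches, with overlapping matches counted. Of 32851 mouse promoter windows of this length, 35.7% hold at least 1 match and 10.7% hold 3 or more, and the median GC content is 52.7%. A match describes the letters and does not show binding.

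Among the receptors, Tgfbr3 differed most and was on the chondrocyte side. Tgfbr3, or betaglycan, is a co-receptor with no kinase of its own that presents ligand, above all Tgfb2, to Tgfbr2. It had 11.9, 9.81 and 9.53 RPKM in osteoblasts, against 24.7, 13.9 and 21.6 RPKM in chondrocytes. Every chondrocyte library was above every osteoblast library. The mean was 1.92-fold higher in chondrocytes, and the log2 difference was -0.85 ± 0.21 (SE, limma, Benjamini-Hochberg adjusted p = 0.00766). The call held in all 6 fits that left out a library (adjusted p 9.68e-05 to 0.0324) and was lost without the filter on low values (0.0723).

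Tgfbr2, the receptor that binds ligand first, was the most abundant receptor in both cell types. Its summed level was 39.2 ± 3.93 RPKM in osteoblasts and 28.4 ± 11.1 RPKM in chondrocytes (n = 3 libraries each, SD). Chondrocyte replicate 3, at 39.2 RPKM, lay within the osteoblast range of 34.7 to 41.9 RPKM. The log2 difference of 0.52 ± 0.27 (SE) was not called (limma, Benjamini-Hochberg adjusted p = 0.120), and without chondrocyte replicate 3 it was 0.79 and called (adjusted p = 0.0124). Without chondrocyte replicate 2 it was 0.21, and it was 0.09 under median-of-ratios and upper-quartile scaling and quantile normalization.

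Tgfbr1, the kinase that signals to Smad2 and Smad3, was the scarcest receptor. It had 8.61, 7.99 and 8.81 RPKM in osteoblasts, against 5.69, 4.26 and 7.83 RPKM in chondrocytes. The groups did not overlap, by a small margin. The log2 difference of 0.48 ± 0.18 (SE) was just called (limma, Benjamini-Hochberg adjusted p = 0.0459) and lay 0.05 above the median of all tested genes. Under median-of-ratios scaling it was 0.10 (limma adjusted p = 0.596). Leaving out any library other than chondrocyte replicate 3 ended the call (adjusted p 0.0583 to 0.122).

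The receptor pool of osteoblasts held 67.4% ± 2.47 Tgfbr2, 17.9% ± 1.46 Tgfbr3 and 14.7% ± 1.72 Tgfbr1. That of chondrocytes held 51.4% ± 4.94 Tgfbr2, 37.5% ± 5.40 Tgfbr3 and 11.04% ± 1.29 Tgfbr1 (n = 3 libraries each, SD). The groups did not overlap in any of the 3 shares (exact two-sided permutation test, p = 0.10 each). As for the ligands, shares of a class add up to the whole and are not separate results. No background was computed for these shares, and levels did not overlap in 75.6% of all tested genes. The ratio of the signalling pair, Tgfbr2 over Tgfbr1, was 4.65 ± 0.661 in osteoblasts and 4.69 ± 0.594 in chondrocytes, closer than the spread between replicates. The ratio of Tgfbr3 to Tgfbr2 was 0.266 ± 0.0290 in osteoblasts and 0.740 ± 0.166 in chondrocytes. The summed receptor level was 58.1 ± 4.49 RPKM in osteoblasts and 54.3 ± 17.2 RPKM in chondrocytes, with overlapping ranges.

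**Figure D2:**
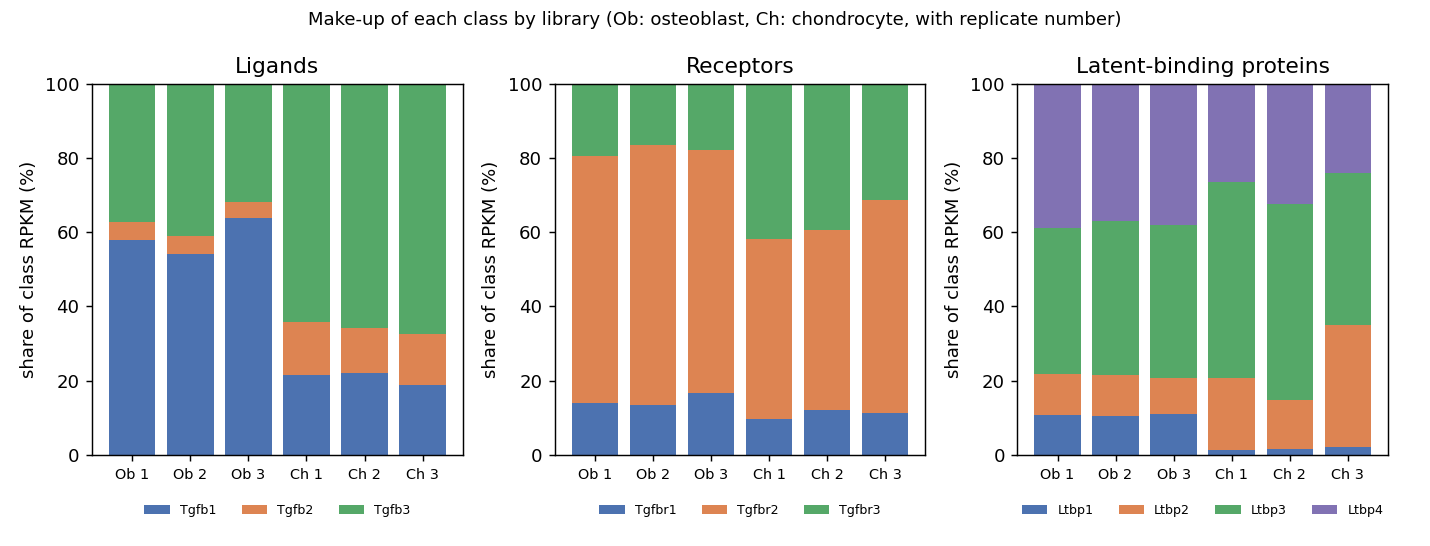
Share of each member (vertical axis, percent) in the summed RPKM of its class, for the 3 osteoblast libraries (Ob, left) and the 3 chondrocyte libraries (Ch, right). Tgfb1 holds most of the ligand RPKM in every osteoblast library and Tgfb3 in every chondrocyte library, and the Tgfbr3 share is larger in every chondrocyte library.

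The Tgfbr2 transcripts differ by a cassette exon of 75 bases, which NM_009371 includes and NM_029575 skips. It is exon 2 of NM_009371, at chr9:116158271-116158345 on the minus strand of GRCm38. The exon is shown because it is the sequence by which the tabled transcripts differ inside the gene. Capitals mark the exon, and the lower case letters are 15 bases of the exons joined to it on each side.
Tgfbr2 exon 2: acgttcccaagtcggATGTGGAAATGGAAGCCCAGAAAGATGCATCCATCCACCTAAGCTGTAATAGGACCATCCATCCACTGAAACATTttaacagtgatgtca
The transcript with the exon had 18.5, 19.25 and 16.7 RPKM in osteoblasts, against 14.7, 10.5 and 22.3 RPKM in chondrocytes. The transcript without it had 22.5, 22.6 and 18.03 RPKM in osteoblasts, against 14.1, 6.60 and 16.9 RPKM in chondrocytes. The groups overlapped for the form with the exon, which was not called (log2 difference 0.24, limma adjusted p = 0.384). They did not overlap for the form without it, whose level passed the test as higher in osteoblasts (0.79, limma adjusted p = 0.0474). Among all 13162 transcripts tested singly, 65.3% were called, 52.2% as higher in osteoblasts and 13.1% as lower. The form with the exon held 46.4% ± 1.47 of Tgfbr2 RPKM in osteoblasts and 56.4% ± 5.14 in chondrocytes (n = 3 libraries each, SD). This share did not pass the test over 3051 transcripts (limma on the logit of shares, Benjamini-Hochberg adjusted p = 0.0965), where 13.9% were called. In GENCODE M21 the transcripts also end at different places, with lengths of 8092 and 3476 bases, and the sources used here do not say how reads were divided between them.

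Among the latent-binding proteins, Ltbp1 gave the largest difference of the 10 members. Ltbp1 joins latent TGF-beta to fibronectin and fibrillin in the matrix. Its summed level was 23.6, 20.6 and 18.9 RPKM in osteoblasts, against 2.51, 2.15 and 7.15 RPKM in chondrocytes. All osteoblast libraries were above all chondrocyte libraries, and chondrocyte replicate 3 was the highest of its group. The mean was 5.34-fold higher in osteoblasts, with a log2 difference of 2.29 ± 0.34 (SE, limma, Benjamini-Hochberg adjusted p = 0.000793). The call held in all 17 alternative settings, at 1.58 to 2.72.

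The tabled levels of both Ltbp1 transcripts were higher in osteoblasts. NM_019919, which starts upstream and has 4 exons of its own, had 7.89, 6.75 and 5.56 RPKM in osteoblasts, against 1.09, 0.820 and 2.85 RPKM in chondrocytes. NM_206958, which starts downstream, had 15.7, 13.9 and 13.3 RPKM in osteoblasts, against 1.42, 1.33 and 4.30 RPKM in chondrocytes. Each was called higher in osteoblasts (log2 differences 1.65 and 2.30, limma, Benjamini-Hochberg adjusted p = 0.00141 and 0.000409). The downstream form led in every library, with 68.2% ± 2.11 of Ltbp1 RPKM in osteoblasts and 59.5% ± 2.68 in chondrocytes (n = 3 libraries each, SD). That share was not tested, because the summed level was under 5 RPKM in some chondrocyte libraries. In GENCODE M21 the downstream form has no exon that lies apart from those of the upstream form. Bases of its own inside an exon that overlaps one of the upstream form were not looked for. How reads were divided between the transcripts is unknown, as for Tgfbr2, and its level may depend on that division. Use of each start was not tested. The 2 start windows are shown since both tabled transcripts were higher in osteoblasts and their annotated starts are separate. They lie on the plus strand of GRCm38.p6 at chr17:75005279-75005578 and chr17:75178531-75178830.
Ltbp1 upstream start: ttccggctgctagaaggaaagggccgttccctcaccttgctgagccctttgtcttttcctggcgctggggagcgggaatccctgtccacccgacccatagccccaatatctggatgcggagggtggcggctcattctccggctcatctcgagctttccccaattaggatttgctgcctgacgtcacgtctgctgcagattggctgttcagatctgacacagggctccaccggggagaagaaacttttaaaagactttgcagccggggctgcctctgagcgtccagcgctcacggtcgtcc
Ltbp1 downstream start: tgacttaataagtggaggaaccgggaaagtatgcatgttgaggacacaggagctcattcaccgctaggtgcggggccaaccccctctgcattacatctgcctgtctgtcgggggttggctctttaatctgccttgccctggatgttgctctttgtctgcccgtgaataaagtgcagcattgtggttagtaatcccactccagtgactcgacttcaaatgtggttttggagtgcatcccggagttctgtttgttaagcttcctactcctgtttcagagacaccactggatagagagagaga
Neither window holds GGGCGG on either strand, and their GC contents are 58.7% and 50%. The letters TAATTA, the core that many homeodomain factors bind, were in neither of them, nor in the other 10 windows listed for 8 of the members, and they are in 5.29% of all windows. No match says only that these letters are not in this window.

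Ltbp4, which works with fibulins in elastic fibre assembly, was not called as a whole but differed in its transcripts. The summed level was 86.2, 73.3 and 64.5 RPKM in osteoblasts, against 52.2, 40.4 and 75.8 RPKM in chondrocytes. Chondrocyte replicate 3 overlapped the osteoblast range. The log2 difference was 0.44 ± 0.23 (SE, limma, Benjamini-Hochberg adjusted p = 0.120), near the median of all tested genes. Without chondrocyte replicate 3 it was 0.68 and called (adjusted p = 0.00874), and without chondrocyte replicate 2 it was 0.23. Under upper-quartile scaling its sign turned, at -0.00303.

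The upstream Ltbp4 transcript NM_175641 had 1.04, 0.903 and 1.36 RPKM in osteoblasts, against 3.35, 8.67 and 7.27 RPKM in chondrocytes. Every chondrocyte library was above every osteoblast library, and the lowest value rested on an estimated 163 reads. The transcript was lower in osteoblasts, with a log2 difference of -1.75 ± 0.28 (SE, limma, Benjamini-Hochberg adjusted p = 0.00119). The downstream transcript NM_001113549 had 85.2, 72.4 and 63.1 RPKM in osteoblasts, against 48.8, 31.7 and 68.5 RPKM in chondrocytes, and was not called (0.61, limma adjusted p = 0.0724). The upstream form held 1.52% ± 0.516 of Ltbp4 RPKM in osteoblasts and 12.5% ± 7.93 in chondrocytes (n = 3 libraries each, SD). Its shares were 1.20%, 1.23% and 2.11% in osteoblasts, against 6.41%, 21.5% and 9.59% in chondrocytes. The share was called lower in osteoblasts (limma on the logit of shares, Benjamini-Hochberg adjusted p = 0.0157). Leaving out osteoblast replicate 1 (0.0560) or 2 (0.0570) ended this call. Chondrocyte replicate 2, with the largest upstream share, also had the largest share of Col2a1 in all RPKM (17.7%). Replicates 1 and 3 went the other way, with 13.2% and 9.43% Col2a1 and upstream shares of 6.41% and 9.59%. The part of cartilage content in the upstream share was not tested.

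The Ltbp4 transcripts have separate first exons: 4 exons belong to the upstream form alone and 1 exon to the downstream form. The windows around the starts are shown because the transcripts differ there, with GGGCGG on either strand in capitals. On the minus strand of GRCm38.p6 they lie at chr7:27337563-27337862 and chr7:27333614-27333913. The RefSeq start of the upstream window is 80 bases from the GENCODE M21 start of NM_175641.
Ltbp4 upstream start: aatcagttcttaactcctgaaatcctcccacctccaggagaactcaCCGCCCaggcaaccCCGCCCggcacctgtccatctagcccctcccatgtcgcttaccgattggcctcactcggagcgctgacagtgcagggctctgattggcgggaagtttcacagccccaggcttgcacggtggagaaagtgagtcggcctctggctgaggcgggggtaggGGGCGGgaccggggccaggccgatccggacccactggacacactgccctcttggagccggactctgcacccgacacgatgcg
Ltbp4 downstream start: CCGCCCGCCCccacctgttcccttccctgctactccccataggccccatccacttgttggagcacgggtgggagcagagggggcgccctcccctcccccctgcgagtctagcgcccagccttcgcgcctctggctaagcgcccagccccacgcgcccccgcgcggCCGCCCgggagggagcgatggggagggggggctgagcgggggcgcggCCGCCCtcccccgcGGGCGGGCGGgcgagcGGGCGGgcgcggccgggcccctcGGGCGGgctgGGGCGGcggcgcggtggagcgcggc
The upstream window has a GC content of 64.3% and 3 matches, and the downstream window has 81.3% and 9 matches, with overlapping ones counted.

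**Figure D3:**
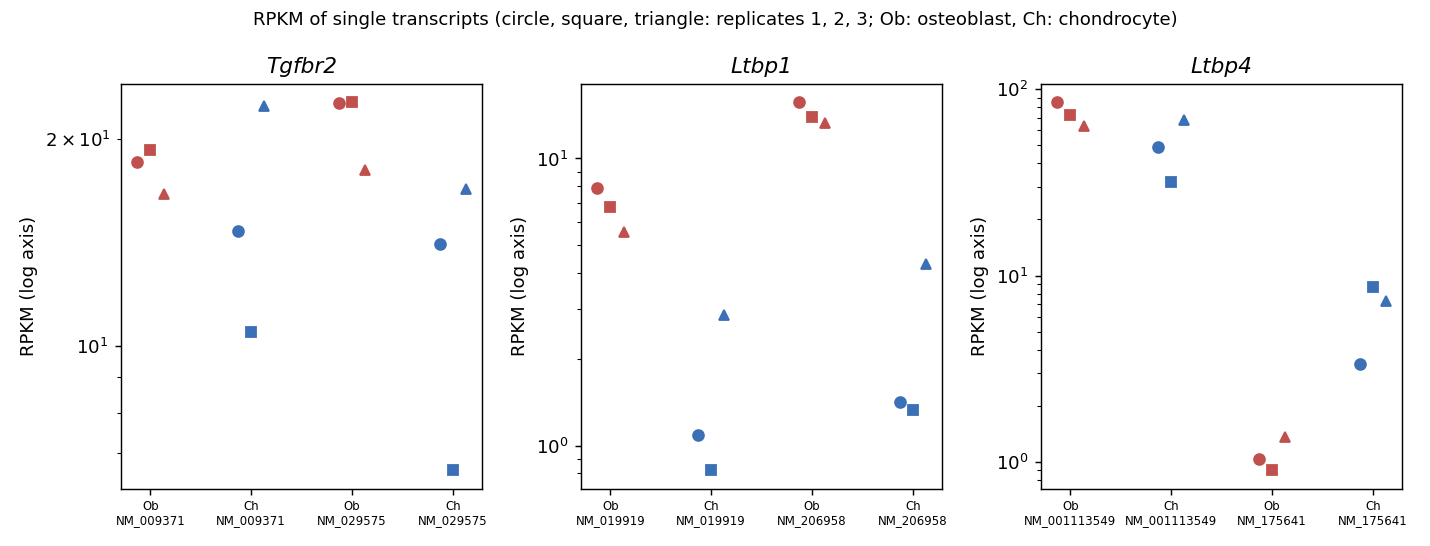
RPKM on a log axis of the 2 tabled transcripts each of Tgfbr2, Ltbp1 and Ltbp4, in the 3 osteoblast libraries (Ob, red) and the 3 chondrocyte libraries (Ch, blue), with a symbol for each replicate. Both Ltbp1 transcripts are higher in osteoblasts, while the upstream Ltbp4 transcript NM_175641 is at 0.903 to 1.36 RPKM in osteoblasts and at 3.35 to 8.67 RPKM in chondrocytes.

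Ltbp3, known from mouse and human mutations that affect bone and teeth, was the most abundant of the 10 members in both cell types. It had 86.8, 82.0 and 69.9 RPKM in osteoblasts, against 105, 66.2 and 129 RPKM in chondrocytes. The ranges overlapped, and the log2 difference of -0.28 ± 0.24 (SE) was not called (limma, Benjamini-Hochberg adjusted p = 0.319). Ltbp3 was called lower in osteoblasts without chondrocyte replicate 2 (-0.55, limma adjusted p = 0.00924) and under 3 scalings, at -0.72 (adjusted p = 0.0128) under median of ratios. Without chondrocyte replicate 3 the difference was -0.07 (limma adjusted p = 0.769).

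Ltbp2, the member of the family that does not bind latent TGF-beta and is a matrix protein of microfibrils, varied most among the chondrocytes. It had 24.5, 22.1 and 16.2 RPKM in osteoblasts, against 38.5, 16.3 and 103 RPKM in chondrocytes. Chondrocyte replicate 2 lay at the low end of the osteoblast range, and chondrocyte replicates 1 and 3 lay above it. The log2 difference of -0.93 ± 0.57 (SE) was not called (limma, Benjamini-Hochberg adjusted p = 0.182), and without chondrocyte replicate 2 it was -1.56 and called (adjusted p = 0.0216). Without chondrocyte replicate 3 it was -0.27 (limma adjusted p = 0.524). The same chondrocyte replicate 3 held the most of 10 tendon, perichondrium and fibroblast markers in sum, at 2594 RPKM, against 888 and 644 RPKM in chondrocyte replicates 1 and 2. This sum was 2044 to 2878 RPKM in osteoblasts, and of 8 markers tested 6 were higher in osteoblasts and 2 lower. Most of the sum was a single collagen gene in every library. That gene, Col3a1, had 645, 498 and 1907 RPKM in chondrocyte replicates 1, 2 and 3, and 1927 to 2724 RPKM in osteoblasts. Tnmd, a marker of tendon, was at 106, 52.3 and 341 RPKM in chondrocyte replicates 1, 2 and 3, in the same order as Ltbp2. That order is not particular to Ltbp2, since all other members but Tgfbr3 had it too. The part of such cells in the Ltbp2 level was not tested.

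Together the latent-binding proteins summed to 196 ± 25.9 RPKM in osteoblasts and 213 ± 95.7 RPKM in chondrocytes (n = 3 libraries each, SD). In osteoblasts 40.6% ± 1.20 of this was Ltbp3, 38.0% ± 1.01 Ltbp4, 10.7% ± 0.363 Ltbp1 and 10.6% ± 0.893 Ltbp2. In chondrocytes 49.0% ± 6.86 was Ltbp3, 27.6% ± 4.26 Ltbp4, 21.7% ± 9.98 Ltbp2 and 1.75% ± 0.503 Ltbp1. The groups did not overlap in the shares of Ltbp1, Ltbp2 and Ltbp4 (exact two-sided permutation test, p = 0.10 each), and did in that of Ltbp3 (p = 0.30). These shares too add up to the whole and are not separate results. They also have no computed background, and levels did not overlap in 75.6% of all tested genes. Set against the ligands, the latent-binding proteins stood at 1.86, 1.71 and 1.44 times the summed ligand RPKM in osteoblasts, against 2.75, 2.43 and 3.66 times in chondrocytes. Every chondrocyte library had the higher ratio, for which no background was computed. The sum includes Ltbp2, which does not bind latent TGF-beta and had 103 RPKM in chondrocyte replicate 3. A ratio without Ltbp2 was not computed.

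The order of levels was partly shared. In osteoblasts it ran Ltbp3, Ltbp4, Tgfb1, Tgfb3, Tgfbr2, Ltbp1, Ltbp2, Tgfbr3, Tgfbr1 and Tgfb2, from a mean of 79.6 RPKM to one of 5.56 RPKM. The neighbours Ltbp3 and Ltbp4, Ltbp4 and Tgfb1, Tgfb3 and Tgfbr2, and Ltbp1 and Ltbp2 overlapped there, and the other neighbours did not. In chondrocytes it ran Ltbp3, Ltbp4, Ltbp2, Tgfb3, Tgfbr2, Tgfbr3, Tgfb1, Tgfb2, Tgfbr1 and Ltbp1, from 100.1 RPKM to 3.94 RPKM, and every pair of neighbours overlapped. Tgfb1 was thus the third of 10 in osteoblasts and the 7th in chondrocytes, and Ltbp1 the 6th and the 10th.

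**Figure D4:**
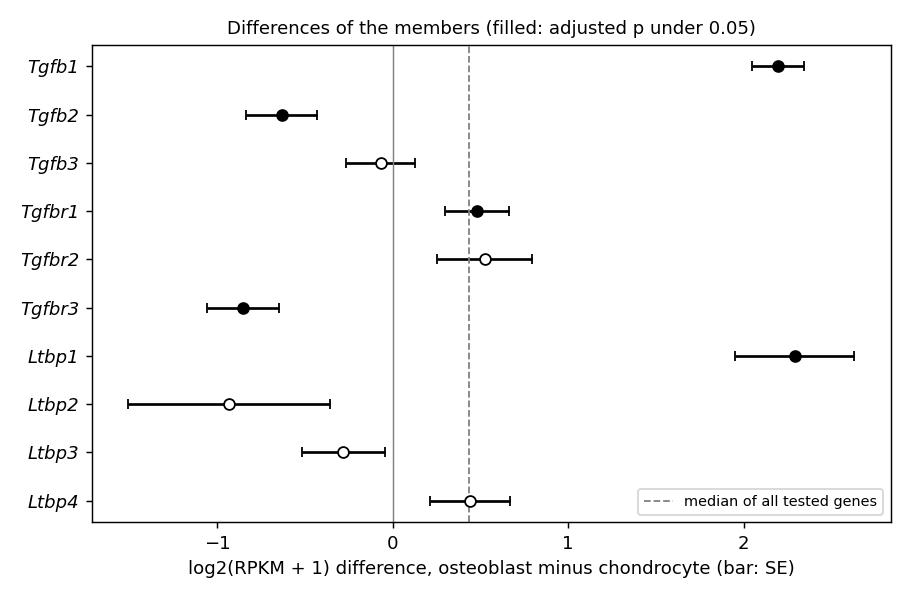
Log2(RPKM + 1) difference, osteoblast minus chondrocyte (horizontal axis), of each member with its SE, filled where the adjusted p was under 0.05. The dashed line is the median of all tested genes, 0.43; Tgfb1 (2.20) and Ltbp1 (2.29) lie far to its right, and Tgfbr1 (0.48) lies on it.

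Genes that anchor, activate or trap latent TGF-beta were followed in a list of 31, of which 26 were tested. Of these, 14 were higher in osteoblasts, 6 were lower and 6 were not called, with a median of 0.92. Over all tested genes 55.5% were higher and 13.5% lower, so the share called higher was near the background. Of 6 integrin chains in the list, which can grip the latent complex, 4 were tested and higher in osteoblasts: Itgav (22.7 against 10.96 RPKM), Itgb1 (174 against 64.7 RPKM), Itgb3 (5.82 against 0.881 RPKM) and Itgb5 (175 against 53.6 RPKM). The other 2 were too low to be tested: Itgb8 averaged 0.335 RPKM in osteoblasts and 0.724 RPKM in chondrocytes with overlapping ranges, and Itgb6 was under 0.01 RPKM in every library. Lrrc32, a cell surface anchor of latent TGF-beta, was at 4.14 against 0.892 RPKM. The proteinases Plat (24.9 ± 4.21 against 1.13 ± 0.581 RPKM, log2 difference 3.62) and Mmp9 (2.21) were also higher in osteoblasts, as were Thbs2 (2.08) and Nov (1.93). Mmp9 and Itgb3 are osteoclast markers too, in a list of 8 of which the 4 tested were all higher in osteoblasts. That list summed to 208 to 223 RPKM in osteoblast libraries and 47.9 to 165 RPKM in chondrocyte libraries, and nearly all of the sum was Ctsk (196 to 205 RPKM in osteoblasts, 45.0 to 162 RPKM in chondrocytes). Calcr, Dcstamp, Ocstamp and Atp6v0d2 were at 0.227 RPKM or less in every library. The part of osteoclasts in these differences was not tested. The 6 that were lower in osteoblasts were mostly abundant matrix genes. Fmod, the collagen-binding fibromodulin, had 217 ± 53.9 RPKM in osteoblasts and 2451 ± 398 RPKM in chondrocytes (log2 difference -3.51). Fn1, fibronectin, had 319 ± 45.0 RPKM in osteoblasts and 1320 ± 245 RPKM in chondrocytes (-2.04). Thbs1, a thrombospondin that activates latent TGF-beta, had 106 against 229 RPKM (-1.06), and Bgn, the proteoglycan biglycan, differed by -1.12. Furin, the proteinase that cuts the propeptide from the ligand, had 34.7 against 47.4 RPKM (-0.44), and Fbn1, fibrillin, differed by -0.65. Emilin1 (143 against 122 RPKM), Ctsd (185 against 197 RPKM) and Dcn (301 against 264 RPKM) were the uncalled members of highest level. Ctsd was called lower in osteoblasts under median of ratios (-0.54), upper quartile (-0.55) and quantile normalization (-0.35).

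Of 30 genes that carry the signal inside the cell or restrain it, all 30 were tested, 14 were higher in osteoblasts, 3 were lower and 13 were not called, with a median of 0.38. Both shares were under the 55.5% higher and 13.5% lower of all tested genes. With libraries scaled by median of ratios, 9 were higher and 11 lower. Of the mediators themselves, Smad2 had 4.91 against 4.42 RPKM, Smad3 20.3 against 21.8 RPKM and Smad4 23.4 against 20.6 RPKM, and none was called. Map3k7, the kinase TAK1, had 17.4 ± 0.830 RPKM in osteoblasts and 6.59 ± 0.899 RPKM in chondrocytes (log2 difference 1.29). Pmepa1, a brake that TGF-beta itself induces, had 47.4 ± 5.44 RPKM in osteoblasts and 17.0 ± 2.50 RPKM in chondrocytes (1.43). The inhibitory Smad6 (1.24), Fkbp1a, a binding partner of Tgfbr1 (1.22), and the co-receptor Eng with its partner Acvrl1 (1.27 and 1.17) were higher in osteoblasts. Eng and Acvrl1 are best known from vessels. The 11 endothelial markers summed to 1.59 to 4.92 RPKM in osteoblasts and 4.73 to 9.22 RPKM in chondrocytes, and none reached the filter for testing. The 3 genes lower in osteoblasts were Dab2 (-0.91), Ldlrad4 (-0.75) and Tgif2 (-0.52). Ski and Tab2 differed by 0.02 each. Both signs turned under 4 scalings, and both genes were called lower in osteoblasts under 3 of these (limma adjusted p 0.0115 to 0.0203 and 0.00597 to 0.0116).

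Genes known to respond to TGF-beta in other cells lay on both sides. Of 29 tested from a list of 30, 17 were higher in osteoblasts, 7 were lower and 5 were not called, with a median of 1.15. The share called higher was near the 55.5% of all tested genes, of which 13.5% were lower. Acta2 and Tagln, contractile genes, had 129 ± 20.9 and 110 ± 10.1 RPKM in osteoblasts, against 3.09 ± 1.26 and 2.97 ± 2.48 RPKM in chondrocytes (log2 differences 5.02 and 4.98). Of 9 smooth muscle and pericyte markers, which hold Acta2 and Tagln, 7 were tested, and 4 were higher, 2 lower and 1 not called. Their sum was 265 to 333 RPKM in osteoblasts and 89.0 to 121 RPKM in chondrocytes. Most of the osteoblast sum was Acta2 and Tagln themselves. Most of the chondrocyte sum was Cspg4, at 77.5, 111 and 68.7 RPKM in replicates 1, 2 and 3, which was lower in osteoblasts (-1.38). The smooth muscle myosin Myh11 was at 0.0618 to 0.162 RPKM in osteoblasts and 0.0541 to 0.114 RPKM in chondrocytes. The part of smooth muscle cells and pericytes in these levels was not tested. The response genes Igfbp3 (2.68) and Adam19 (2.64) were also higher in osteoblasts. Ctgf, a matricellular target, had 77.9 ± 11.4 RPKM in osteoblasts and 473 ± 186 RPKM in chondrocytes (-2.53). Prg4, lubricin of the joint surface, had 1.35 ± 0.632 RPKM in osteoblasts and 20.6 ± 6.83 RPKM in chondrocytes (-3.19). Klf10, an early target, had 19.5 RPKM in osteoblasts, against 37.4 RPKM in chondrocytes (-0.88). The immediate feedback genes Smad7 (13.01 against 10.1 RPKM) and Skil (12.1 against 15.6 RPKM) were not called. Postn (676 against 1303 RPKM), Tgfbi (76.4 against 114 RPKM) and Bhlhe40 (59.8 against 98.4 RPKM) were the uncalled genes of highest level. Tgfbi and Bhlhe40 were called lower in osteoblasts under all 4 other scalings (limma adjusted p 0.0104 to 0.0272 and 0.00513 to 0.0259). Postn was called lower under median-of-ratios (-1.21) and upper-quartile scaling (-1.22), and at -2.39 for its transcript of highest mean level tested singly (limma adjusted p = 0.00192), while another Postn transcript lay on the osteoblast side. RNA levels at 1 age do not measure latent or active ligand.

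**Figure D5:**
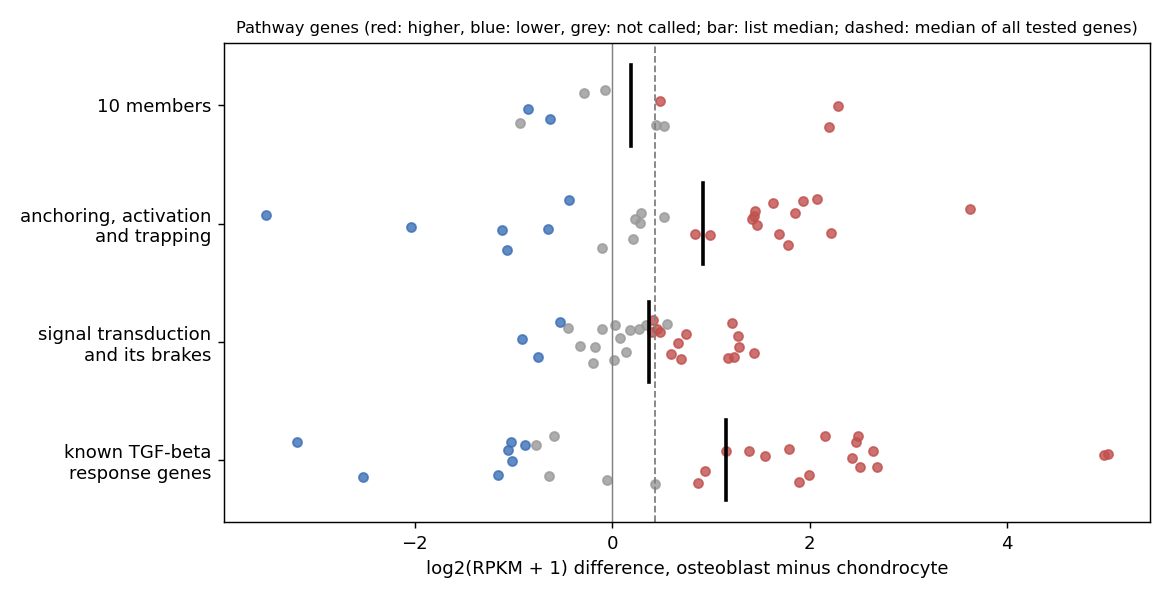
Log2(RPKM + 1) differences, osteoblast minus chondrocyte (horizontal axis), of the 10 members and of the tested genes of 3 lists, red where higher and blue where lower in osteoblasts at an adjusted p under 0.05, and grey where not called. Black bars are list medians (0.19, 0.92, 0.38 and 1.15 from top to bottom) and the dashed line is the median of all tested genes, 0.43.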

How the data were processed

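The authors deposited one table of RPKM, with a value for each RefSeq transcript in each library, per the file headers. TopHat2 2.0.8 and mouse build mm9 are listed in the submitters' processing notes. The counting program was not given in the sources used here. The lowest deposited value is 0.0001. Columns were matched to samples by their description labels. The members and gene lists were chosen with earlier results of these data known.

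Transcripts of a symbol were added up in RPKM. Genes reaching 1 RPKM in 3 or more libraries entered limma 3.58.1 (R 4.3.3), fitted to log2(RPKM + 1) with a variance trend and robust moderation, and tests were two-sided. That scale understates changes of low genes. Transcript shares were tested as logits (offset 0.01) for transcripts with a mean share above 2% in genes of at least 5 RPKM in every library. The fit was tested on simulated data.

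Read totals were estimated from RPKM steps and GENCODE M21 transcript lengths. Between 51.6% and 58.6% of low values lay within 0.05 of a whole read, too few to recover counts, so totals are approximate. Promoter windows are from RefSeq tables of GRCm38.p6, which held 8 of the 10 members, and transcript models and the exon from GENCODE M21 (GRCm38), not mm9. Counts of genes called, class shares and transcript shares were recomputed with other pseudocounts, filters, scalings and moderation, with a replicate block, on transcripts as deposited, and without each library. Named genes are all members, up to 6 called and 3 uncalled genes of each pathway list by size, and genes that complete a small count, and others, among them Itgav, Itgb1, Itgb3, Itgb5, Lrrc32, Thbs1, Bgn, Furin, Fbn1, Smad2, Smad3, Smad7, Skil and Klf10, were named after their values were seen.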

Additional observations from a re-analysis of the deposited data

How the results depend on the processing

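Tgfb1 and Ltbp1 kept their call and direction in all 17 alternatives, and Tgfbr3 in 16. Of the members called lower in osteoblasts, 2 became 0 with no filter and 4 under median-of-ratios scaling, upper-quartile scaling and quantile normalization. Leaving out 1 library gave 1 to 4 lower and 2 to 5 higher members. Over all genes, 4092 were higher and 885 lower at a mean RPKM of at least 5, where fewer genes were tested. The counts were 3765 and 3178 under median of ratios, 3706 and 3184 under upper quartile, and 3597 and 3456 under quantile normalization. For signal transduction genes these 3 scalings gave 9 higher and 11 lower, 8 and 10, and 9 and 12. Rescaling RPKM to a common total gave 7 lower, no filter 1, and leaving out 1 library 2 to 7. Of response genes, 4 were lower with no filter. With the highest single transcript in place of sums, the class share differences were 7.11 percentage points for Tgfbr1, 6.53 for Ltbp1 and 13.9 for Ltbp4. Without 1 library, 239 to 314 transcript shares and 0 to 1 member share were called. The cause of these moves was not tested.

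Signs turned for genes that were not called on the deposited scale. Of these, Ski and Tab2 were called lower in osteoblasts under median of ratios, upper quartile and quantile normalization. Under median of ratios the log2 differences were -0.16 for Dcn, -0.21 for Emilin1, -0.41 for Ski, -0.42 for Tab2 and -0.25 for Smad4. Under upper quartile they were -0.16, -0.21, -0.42, -0.42 and -0.25 for the same genes and -0.00303 for Ltbp4. Under quantile normalization Emilin1 was at -0.12, Ski at -0.38, Tab2 at -0.40 and Smad4 at -0.24. With a common total Ski was at -0.14 and Tab2 at -0.14. Leaving out 1 library gave -0.27 to 0.11 for Tgfb3, -0.18 to 0.55 for Dcn, -0.11 to 0.10 for Ski, -0.0219 to 0.0501 for Tab2 and -0.16 to 0.00665 for Ctsd.

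Deviations of same-numbered libraries correlated at 0.08, 0.01 and -0.16 across genes, and those of differently numbered libraries at -0.15 to 0.13. These values cannot show whether same-numbered libraries shared a source or batch. With a replicate block, 5892 genes were higher and 1376 lower, and 3 members were higher and 2 lower. Each median of all genes moved with the scaling: 0.43 as deposited, 0.34 with a common total, 0.06 under median of ratios and upper quartile, and 0.02 under quantile normalization. The lowest transcript value rested on an estimated 163 reads, and 3 libraries a group limit the precision.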
